A study of Mus musculus with 6 samples.

Results

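In all, 10 genes of granule proteins and neutrophil maturation were followed through chromatin accessibility in mouse leukaemia cells: Mpo, Elane, Prtn3, Ctsg, Ms4a3, S100a8, S100a9, Lcn2, Ltf and Fpr1. An accessible region (peak) was counted for one of them where the deposited table named that gene as its nearest and placed the peak centre at most 100000 bp from the gene's transcription start site (TSS). The rule found 37 of the 175929 peaks of the table, and each of the 10 genes had at least 1. Prtn3 had 10, Mpo 7, Elane 5, Ltf 5, S100a9 3, Ms4a3 2, Lcn2 2, and Ctsg, S100a8 and Fpr1 had 1 each. The rule used names and distances, not tag counts.

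The assay was ATAC-seq: a transposase cuts open DNA and leaves sequencing adapters there. All cells were Usp18+/f UBCER-Cre AE9a leukaemia cells: they carried AE9a, a truncated AML1/ETO fusion oncogene, 1 floxed Usp18 allele beside 1 intact allele, and a Cre recombinase that tamoxifen switches on and that is driven by the ubiquitin C promoter, which is active in most cell types. They were transplanted into recipient mice, and once ill the mice received the oil vehicle or tamoxifen, so that the tamoxifen group alone was exposed to the drug and the controls carry the same alleles unexposed. Tamoxifen itself and the loss of 1 Usp18 allele therefore cannot be told apart. Lineage-negative (Lin-), c-Kit+, GFP+ splenocytes were sorted on day 3 counted from the first injection, giving 3 oil libraries (replicates 1, 2 and 4) and 3 tamoxifen libraries (replicates 1, 3 and 4). The labels do not say whether each library came from its own mouse. The study's methods describe separate mice for sorted samples paired with ATAC-seq, but state a replicate number for this assay that is not that of the libraries here, so each SD and n is over libraries.

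Neutrophils make their granule proteins in a fixed order. Myeloperoxidase and the serine proteases of the azurophil granules are made in promyelocytes, proteins of the specific granules such as lactoferrin and lipocalin-2 in myelocytes and later, and the S100 proteins and chemotactic receptors as the cell matures. The oncogene AML1/ETO interferes with this differentiation, and the transcription factors RUNX1, C/EBP and PU.1 are known to act on many of these genes. Usp18 encodes the protease that removes ISG15 from proteins and restrains type I interferon signalling.

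Libraries held 57.4 to 74.7 M tags in all (M, 1000000), of which 17.5 to 21.1 M lay in peaks, and the median peak held 45 to 57 tags in each library. Values are given as normalised tags, the deposited tags divided by DESeq2's size factor of the library. The tamoxifen 4 library stood apart: across all peaks it correlated at 0.968 to 0.971 with the oil libraries but at 0.958 with each of the other tamoxifen libraries, so results are also given without it. The Usp18 TSS peak held 415 to 458 normalised tags in oil and 438 to 469 after tamoxifen, and 0 of 15 Usp18 peaks passed an adjusted p of 0.05 in DESeq2 (0 at an unadjusted p under 0.05), so accessibility gives no check of the deletion. The Kit TSS peak, the surface marker of the gate, held 757 ± 9.06 normalised tags in oil and 787 ± 60.8 after tamoxifen (SD, n = 3 each). Ptprc, another leukocyte marker, had no peak within 3000 bp of its TSS. In bulk libraries of this kind, more cells with an open site and a more open site in each cell cannot be told apart.

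The sequences below are those of the regions on which the results turn. The first 4 are the peaks of these genes at an unadjusted p under 0.05, whole, and the last 2 are stretches of the Elane and Prtn3 promoter peaks. These stretches lie before the annotated gene start for Elane and before the start of the first protein-coding transcript for Prtn3, whose annotated gene begins farther upstream. Both starts lie upstream of the TSS from which peak distances are counted. All are on the plus strand of mm10, read from the RefSeq copy of that build. Capitals mark 3 short motifs on either strand: TGTGGT (core of the RUNX site), TTGCNNAA (C/EBP) and GAGGAAG (PU.1 and other ETS factors). A match is a run of letters, not a site shown to be bound.
Fpr1 +4383 (chr17:17879433-17879680): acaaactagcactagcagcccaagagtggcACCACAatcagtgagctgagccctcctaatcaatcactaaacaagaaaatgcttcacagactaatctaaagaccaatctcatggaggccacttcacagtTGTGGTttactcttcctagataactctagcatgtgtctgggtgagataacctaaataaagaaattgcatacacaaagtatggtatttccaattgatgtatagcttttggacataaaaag
Mpo +9008 (chr11:87802655-87802929): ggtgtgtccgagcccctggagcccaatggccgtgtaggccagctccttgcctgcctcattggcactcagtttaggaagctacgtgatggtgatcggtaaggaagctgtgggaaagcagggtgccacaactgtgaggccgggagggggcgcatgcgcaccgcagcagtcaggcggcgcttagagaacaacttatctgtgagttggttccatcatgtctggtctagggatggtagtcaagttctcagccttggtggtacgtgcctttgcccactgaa
Mpo +14652 (chr11:87808297-87808575): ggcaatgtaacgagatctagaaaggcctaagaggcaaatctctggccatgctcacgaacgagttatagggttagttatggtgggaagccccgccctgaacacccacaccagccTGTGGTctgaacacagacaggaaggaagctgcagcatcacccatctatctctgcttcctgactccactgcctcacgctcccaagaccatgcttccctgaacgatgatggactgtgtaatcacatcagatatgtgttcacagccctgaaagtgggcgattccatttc
Ltf -8655 (chr9:111010524-111010750): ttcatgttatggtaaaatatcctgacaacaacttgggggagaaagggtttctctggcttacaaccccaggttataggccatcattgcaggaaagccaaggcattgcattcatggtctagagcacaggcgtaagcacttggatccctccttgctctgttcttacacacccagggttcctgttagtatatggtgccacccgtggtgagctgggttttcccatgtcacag
Elane promoter (chr10:79886131-79886246): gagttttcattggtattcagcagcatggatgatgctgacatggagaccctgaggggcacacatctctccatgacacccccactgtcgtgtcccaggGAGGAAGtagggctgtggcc
Prtn3 promoter (chr10:79879522-79879613): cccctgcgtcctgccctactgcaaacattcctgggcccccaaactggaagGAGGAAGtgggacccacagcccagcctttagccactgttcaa

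In the Fpr1 peak, which is written above with 2 RUNX core matches, 1 on each strand, there were also 2 matches to AGATAA, the GATA motif. The Mpo +14652 peak held 1 RUNX core match, while the Mpo +9008 and Ltf -8655 peaks held no match to the 3 motifs marked in capitals. The Mpo +9008 peak held 1 GATA match, and the Mpo +14652 and Ltf -8655 peaks held none. The Elane and Prtn3 promoters each held 1 GAGGAAG match. It lay 13 bases before the annotated gene start of Elane and 35 bases before the start of the first protein-coding Prtn3 transcript. Both matches are thus farther from the TSS used for peak distances. Over the 37 peaks, 9 held the RUNX core (24.3%), 2 the C/EBP motif (5.41%), 9 the ETS motif (24.3%), 4 the GATA motif (10.8%) and 1 TGANTCA, the AP-1 motif (2.70%). Of the peaks of all genes on the assembled chromosomes, 24.2%, 9.26%, 14.7%, 19.1% and 8.87% held them in that order, and of those as wide as the peaks of the 10 genes (204 to 549 bp) 23.7%, 8.96%, 14.4%, 19.0% and 8.64%. These shares were not tested against each other. In the RefSeq promoter windows, which run from 250 bases before to 50 after a gene start, GAGGAAG was present for 6 of the 10 genes (Ctsg, Elane, Lcn2, Mpo, Prtn3 and S100a8) and in 13.6% of all 32851 windows, although only Elane and Prtn3 of these had an accessible promoter peak here. TTGCNNAA was in the windows of 4 genes (Lcn2, Ltf, Ms4a3 and S100a9) and in 10.8% of all. The RUNX core was in those of 3 (Ctsg, Ltf and S100a9) and in 16.8% of all. The GATA motif was in those of 2 (Ltf and S100a9) and in 11.2% of all, and the AP-1 motif in 0 and in 7.81% of all. All motifs were searched on both strands, matches to different motifs may overlap, and their part in the tag counts was not tested.

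The 37 peaks lay mostly away from start sites. Only Elane and Prtn3, 2 of the 10 genes, had a peak within 500 bp of the TSS, against 13601 of the 19781 genes with a peak in the table (68.8%) and 29 of the 45 further neutrophil genes described below. By the table's annotation 19 peaks were in introns, 2 in exons, 2 in promoters, 4 by the 3' end of a gene and 10 in intergenic DNA. Within 3000 bp of a TSS were 17 of the 37 peaks (45.9%), against 30.4% of all peaks, 15 of those 17 belonging to the neighbouring genes Elane and Prtn3. Both groups' peak lists held 24 of the 37, the oil list alone 6 and the tamoxifen list alone 7.

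Levels of different peaks were compared per length, as tags per kb per 1000000 tags in peaks. In oil, the most accessible peaks of the 10 genes ran from 59.0 ± 3.10 for the S100a9 peak at -14548 bp to 3.56 ± 0.899 for the Fpr1 peak at +4383 bp (SD, n = 3), that is from percentile 90.1 to percentile 3.10 of all peaks. Behind S100a9 came the Elane peak at -2433 bp (55.8 ± 3.07), the Prtn3 peak at +2515 bp (39.7 ± 4.08) and the Ctsg peak at +3449 bp (34.5 ± 2.48). Next were Ms4a3 at +6249 bp (18.7 ± 0.150), Mpo at +9008 bp (18.1 ± 0.666) and S100a8 at -4666 bp (14.1 ± 2.55), and last came Ltf at -3437 bp (9.16 ± 2.32), Lcn2 at +2582 bp (7.10 ± 1.04) and Fpr1. The oil libraries overlapped between neighbours in this order for S100a9 and Elane, Prtn3 and Ctsg, Ms4a3 and Mpo, S100a8 and Ltf, and Ltf and Lcn2, so those neighbours did not differ beyond their spread. The serine protease genes and S100a9 thus held the most open regions. The place of Fpr1 at the end is a description only, since its peak was called in the tamoxifen group alone and a low level in oil goes with that, and Ltf was not separated from S100a8 or Lcn2. Of the 37 peaks, 15 were above the median level of all peaks.

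**Figure D1:**
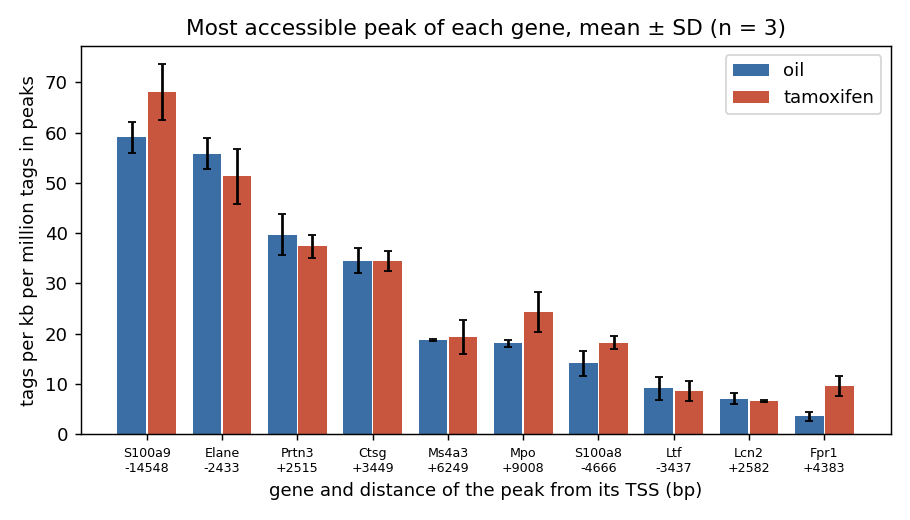
Mean level of the most accessible peak of each gene in tags per kb per 1000000 tags in peaks (vertical axis, bars with SD, 3 libraries a group), ordered by the level in oil, with the distance of the peak from the TSS in bp under each name. S100a9 and Elane stand highest at 59.0 and 55.8 in oil and Fpr1 lowest at 3.56, and Fpr1 is the one gene whose bar after tamoxifen (9.59) is more than 2 times that in oil.

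To ask whether loss of 1 Usp18 allele changed accessibility at these genes, tags in oil and tamoxifen were compared with DESeq2 over all peaks. Of the 37 peaks 1, that of Fpr1, passed an adjusted p of 0.05, and it was higher after tamoxifen, with a fold change over 2. That peak was in the tamoxifen peak list alone, so it entered the table through the group where it was high, and such an entry favours a rise: of the 19718 peaks of the table from that list alone, 82.9% had a log2 fold change above 0 (median 0.31) and 2.31% passed higher, against 52.8% (median 0.01) and 1.34% of the 125658 peaks in both lists. Of the 24 peaks of these genes in both lists, 0 passed an adjusted p of 0.05 in DESeq2 and 2 were at an unadjusted p under 0.05, with 14 above 0 and a median log2 fold change of 0.01. Of all peaks 1.39% passed that threshold, 1.22% higher after tamoxifen, and 0.654% passed it with a fold change over 2. At an unadjusted p under 0.05 there were 4 of the 37 (10.8%), 3 higher and 1 lower after tamoxifen, where all peaks gave 9.02% (6.18% higher and 2.84% lower). The 3 libraries of a group did not overlap those of the other at 8 of the 37 peaks (21.6%), 5 higher and 3 lower, where all peaks gave 21.9% (11.9% higher and 10.0% lower). Both shares were near that of all peaks. The median log2 fold change of the 37 was 0.05, against -0.0013 over all peaks, with 23 above 0. Without Fpr1 the remaining 36 peaks held 0 at an adjusted p of 0.05, with 3 (8.33%) at an unadjusted p under 0.05, and their lowest adjusted p was 0.282. edgeR likewise called 1 of the 37 at an adjusted p of 0.05, with 7 at an unadjusted p under 0.05. Without tamoxifen 4, DESeq2 called 1 at an adjusted p of 0.05 and 5 at an unadjusted p under 0.05, and without tamoxifen 3 it called 1 and 3. Without oil 1, oil 2 or tamoxifen 1 it called 0 at an adjusted p of 0.05 and 2 at an unadjusted p under 0.05, and without oil 4 it called 0 and 1.

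**Figure D2:**
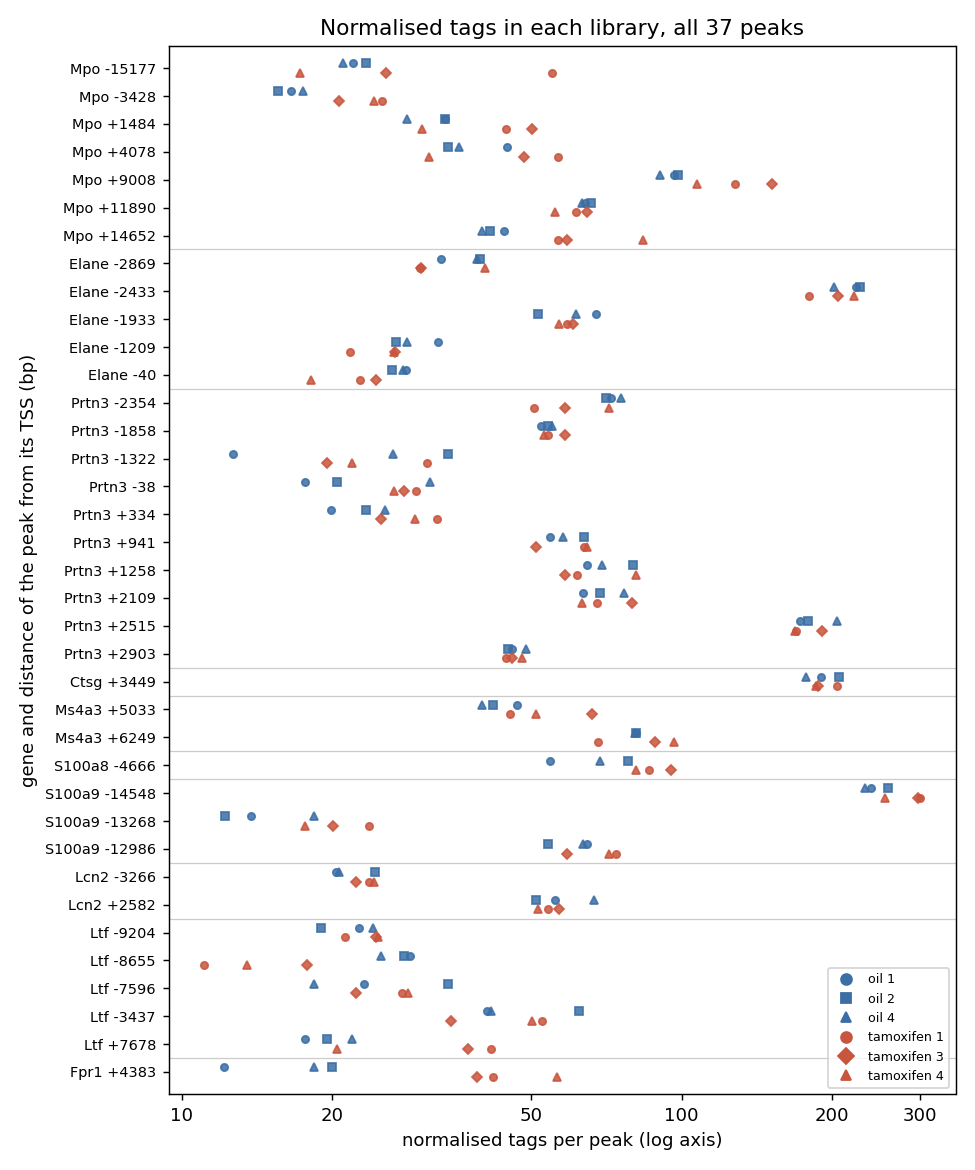
Normalised tags per peak on a log axis (horizontal) for all 37 peaks, named by gene and distance from the TSS in bp (vertical), with oil libraries in blue and tamoxifen libraries in red, a symbol for each replicate number. Most rows overlap between the groups, the Fpr1 row does not (12.1 to 20.0 in oil, 39.0 to 56.3 after tamoxifen), and in the Ltf -8655 row the tamoxifen libraries lie below the oil libraries.

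Fpr1 encodes a receptor for formylated peptides that guides neutrophils to bacteria. Its single peak lay in intron 1 (chr17:17879433-17879680) and entered the table from the tamoxifen peak list alone. It held 12.1, 20.0 and 18.4 normalised tags in oil 1, 2 and 4 and 42.0, 39.0 and 56.3 in tamoxifen 1, 3 and 4. Every tamoxifen library was above every oil library, and the tamoxifen 4 library, which stood apart across all peaks, was the highest. The means were 16.8 ± 4.15 and 45.8 ± 9.26 normalised tags (SD, n = 3 each), a log2 fold change of 1.47 ± 0.36 (SE) or 2.76-fold (95% interval 1.69 to 4.52), with an adjusted p of 0.00787 in DESeq2. In oil the peak was among the least accessible of the table, so few tags stand behind each value, and the fold change carries the selection through the tamoxifen list described above. The call rested on most of the libraries: the DESeq2 adjusted p was 0.171 without oil 1, 0.0510 without oil 2, 0.0734 without oil 4 and 0.0553 without tamoxifen 1, but 0.0487 without tamoxifen 3 and 0.0464 without tamoxifen 4. The log2 fold change stayed between 1.30 and 1.596 in these fits. With edgeR the adjusted p was 0.00250. Fpr2, the neighbouring receptor gene of the same family, had 2 peaks, 0 of them past an adjusted p of 0.05 and 1 at an unadjusted p under 0.05, with a median log2 fold change of 0.38.

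Mpo encodes myeloperoxidase, the heme enzyme of azurophil granules that makes hypochlorous acid. Its log2 fold changes were above 0 at 6 of 7 peaks, with a median of 0.43, and 0 passed an adjusted p of 0.05. The peak at +9008 bp (chr11:87802655-87802929), its most accessible, was placed in intron 12 and reaches into the coding exon before it. It held 96.5, 98.5 and 90.5 normalised tags in oil 1, 2 and 4 and 128, 152 and 107 in tamoxifen 1, 3 and 4. The groups did not overlap, with tamoxifen 4 nearest to the oil libraries. The log2 fold change was 0.43 ± 0.19 (SE), with an unadjusted p of 0.0244 and an adjusted p of 0.408 in DESeq2. Without tamoxifen 4 it was 0.55 (adjusted p 0.107).

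The Mpo peak at +14652 bp (chr11:87808297-87808575) lay past the end of Mpo, in intron 11 of Lpo, the neighbouring gene of lactoperoxidase. It held 44.1, 41.4 and 39.9 normalised tags in oil 1, 2 and 4 and 56.5, 59.1 and 83.8 in tamoxifen 1, 3 and 4. Here too the groups did not overlap, and tamoxifen 4 was the highest rather than the lowest of its group. The log2 fold change was 0.68 ± 0.27 (SE), with an unadjusted p of 0.0116 and an adjusted p of 0.282. Without tamoxifen 4 it was 0.47 (unadjusted p 0.111, adjusted p 0.524).

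The Mpo peak nearest the TSS, in exon 4 at +1484 bp, held 33.6, 33.6 and 28.2 normalised tags in oil and 44.5, 50.1 and 30.3 after tamoxifen. The groups overlapped (log2 fold change 0.39 ± 0.32, adjusted p 0.854). The peaks at -3428 bp and +4078 bp had log2 fold changes of 0.47 and 0.26, the first of them without overlap. That first peak came from the tamoxifen list alone, which favours a rise, and those at +4078 bp and -15177 bp from the oil list alone. The peak at -15177 bp, in an intron of Tspoap1, was at 55.1 normalised tags in tamoxifen 1 but at 25.6 and 17.2 in tamoxifen 3 and 4, against 21.1 to 23.4 in oil, so its log2 fold change of 0.54 rested on 1 library. The peak at +11890 bp, by the end of Lpo, was at 63.2 to 65.8 normalised tags in oil and 55.9 to 64.6 after tamoxifen. Summed over the 7 peaks, oil libraries held 296 to 322 normalised tags and tamoxifen libraries 350 to 427. That sum did not overlap between the groups, but with 3 libraries against 3 an exact two-sided permutation test cannot go below 0.10. Nor was this particular to Mpo: the S100a9 sum (315 to 325 in oil, 344 to 397 after tamoxifen) and the single peaks of S100a8 and Fpr1 did not overlap either. The S100a9 sum includes a peak, at -13268 bp, from the tamoxifen list alone.

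**Figure D3:**
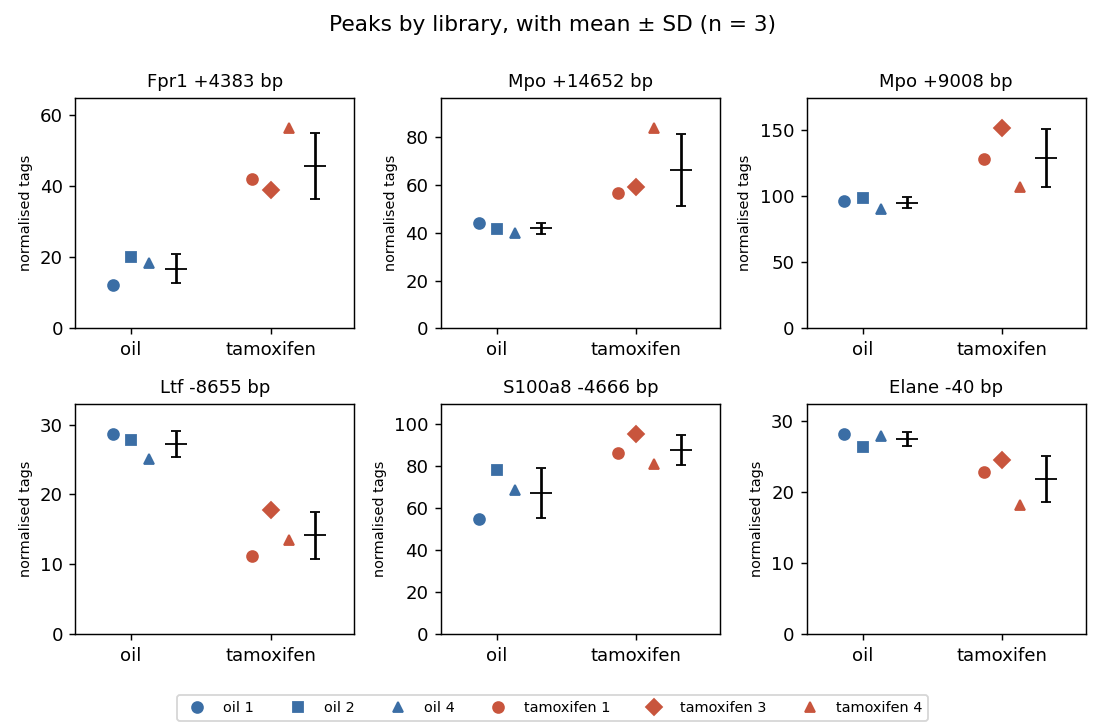
Normalised tags (vertical axis, from 0) of 6 peaks in each library, with oil in blue, tamoxifen in red, and the mean ± SD of the 3 libraries in black beside them. Shown are the 4 peaks at an unadjusted p under 0.05 in DESeq2, with the S100a8 peak and the Elane promoter peak added by choice. In all 6 the groups do not overlap, as at 8 of the 37 peaks (21.6%, all peaks 21.9%). The Fpr1 peak came from the tamoxifen peak list alone and the Ltf and Elane peaks from the oil list alone, which favours these directions. Fpr1, both Mpo peaks and S100a8 were higher after tamoxifen and the Ltf and Elane peaks lower, and the Fpr1 peak alone passed an adjusted p of 0.05 in DESeq2.

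Elane, Prtn3 and Ctsg encode neutrophil elastase, proteinase 3 and cathepsin G, the serine proteases of azurophil granules. Elane and Prtn3 are neighbours on chromosome 10, and their 15 peaks lay within 9211 bp. None passed an adjusted p of 0.05, and the lowest unadjusted p among the 15 was 0.244. At the Elane promoter peak (-40 bp, holding the ETS match written above) there were 28.1, 26.3 and 27.8 normalised tags in oil and 22.7, 24.5 and 18.2 after tamoxifen. The groups did not overlap, but the log2 fold change of -0.32 ± 0.37 (SE) had an adjusted p of 0.931. The Prtn3 promoter peak (-38 bp) held 17.6, 20.5 and 31.4 normalised tags in oil and 29.5, 27.9 and 26.5 after tamoxifen, with overlap and a log2 fold change of 0.24 ± 0.38 (adjusted p 0.963). The log2 fold change was below 0 at all 5 Elane peaks (-0.32 to -0.03) and at 5 of the 10 Prtn3 peaks (-0.28 to 0.35). The Elane peaks at -40 and -2869 bp came from the oil list alone, which favours a fall. Of the peaks of the table from that list alone, 15.8% had a log2 fold change above 0. The Prtn3 promoter peak came from the tamoxifen list alone, which favours a rise, and the Prtn3 peak at -1322 bp from the oil list alone. The directions at the Elane and Prtn3 promoter peaks are thus those that their lists favour.

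The most accessible peak of Elane, at -2433 bp and past the 3' end of Prtn3, held 223, 228 and 202 normalised tags in oil and 179, 205 and 221 after tamoxifen. The groups overlapped, with tamoxifen 1 lowest (log2 fold change -0.11 ± 0.14, 95% interval -0.38 to 0.17, adjusted p 0.945). The most accessible peak of Prtn3, in intron 4 at +2515 bp, held 172, 178 and 204 normalised tags in oil and 169, 191 and 169 after tamoxifen, with a log2 fold change of -0.08 ± 0.15 (95% interval -0.37 to 0.22). The single Ctsg peak, past the 3' end of that gene at +3449 bp, held 190, 206 and 177 normalised tags in oil and 204, 187 and 186 after tamoxifen (log2 fold change 0.01 ± 0.14, 95% interval -0.27 to 0.29). At these 3 well covered peaks the intervals exclude a change of 2-fold in either direction.

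Ms4a3 encodes a membrane protein of the granulocyte and monocyte progenitor. Its peak nearest the TSS, in exon 4 at +5033 bp, held 46.9, 41.9 and 39.9 normalised tags in oil and 45.4, 66.3 and 51.2 after tamoxifen. The groups overlapped (log2 fold change 0.35 ± 0.28, adjusted p 0.833). At +6249 bp the oil libraries held 80.6 to 81.1 normalised tags and the tamoxifen libraries 68.1 to 96.4.

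S100a8 and S100a9 encode the 2 chains of calprotectin, a calcium-binding protein of the neutrophil cytosol, and lie side by side on chromosome 3. The single S100a8 peak, upstream in intergenic DNA at -4666 bp (chr3:90664281-90664529), held 54.6, 78.0 and 68.5 normalised tags in oil and 86.0, 95.3 and 81.0 after tamoxifen. The groups did not overlap, with oil 2 and tamoxifen 4 close to each other (log2 fold change 0.38 ± 0.22, adjusted p 0.676). The most accessible S100a9 peak, at -14548 bp, held 239, 258 and 233 normalised tags in oil and 299, 296 and 255 after tamoxifen. Tamoxifen 4 fell among the oil libraries, and the log2 fold change was 0.22 ± 0.13 (adjusted p 0.664). The other S100a9 peaks, at -13268 bp and -12986 bp, had log2 fold changes of 0.50 ± 0.45 and 0.17 ± 0.24, with overlap, and were the only peaks of the 37 with a C/EBP match. That at -13268 bp came from the tamoxifen list alone, which favours a rise.

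Lcn2 and Ltf encode lipocalin-2, which binds bacterial iron carriers, and lactoferrin, both proteins of the specific granules. The Lcn2 peak in intron 5 at +2582 bp held 55.7, 51.2 and 66.7 normalised tags in oil and 54.1, 56.8 and 51.7 after tamoxifen, and that at -3266 bp held 20.4 to 24.4 and 22.3 to 24.2. The groups overlapped at both, and the peak at -3266 bp came from the tamoxifen list alone. The Ltf peak at -8655 bp (chr9:111010524-111010750), in intergenic DNA, was the one peak lower after tamoxifen at an unadjusted p under 0.05. It came from the oil peak list alone, whose 30553 peaks in the table had a median log2 fold change of -0.26. It held 28.7, 27.8 and 25.1 normalised tags in oil and 11.1, 17.8 and 13.5 after tamoxifen. The groups did not overlap, at few tags, and the log2 fold change of -0.94 ± 0.42 (SE) had an unadjusted p of 0.0258 and an adjusted p of 0.419 in DESeq2. Without tamoxifen 4 it was -0.88 (unadjusted p 0.0578, adjusted p 0.390).

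Within Ltf, in intron 9 at +7678 bp, the direction was the opposite: the oil libraries held 17.6, 19.5 and 21.95 normalised tags and the tamoxifen libraries 41.6, 37.3 and 20.5. Tamoxifen 4 fell among the oil libraries (log2 fold change 0.76 ± 0.39, adjusted p 0.560). This peak came from the tamoxifen list alone and that at -8655 bp from the oil list alone. Each thus went the way that its list favours, and the contrast is a description only. The other Ltf peaks, at -9204 bp, -7596 bp and -3437 bp, had log2 fold changes of 0.09, 0.05 and -0.07. That at -7596 bp also came from the tamoxifen list alone. No direction was shared by the 5 Ltf peaks.

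**Figure D4:**
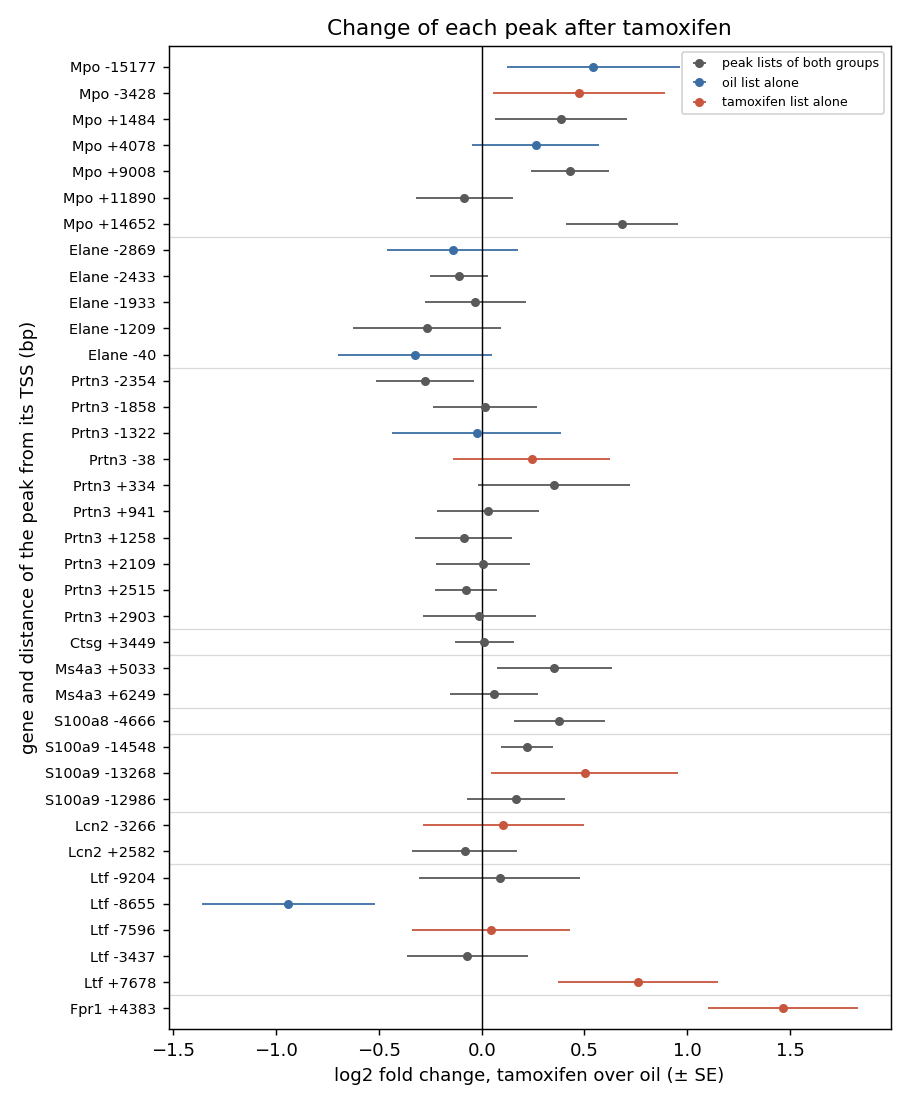
Log2 fold change of tamoxifen over oil with its SE (horizontal axis) for the 37 peaks, named by gene and distance from the TSS in bp (vertical axis), coloured by the peak list that held the peak. Mpo lies right of 0 at 6 of 7 peaks, Elane left of 0 at 5 of 5, and Fpr1 at 1.47 and Ltf -8655 at -0.94 are the farthest from 0 on either side.

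By distance, 17 of the 20 peaks more than 3000 bp from the TSS had a log2 fold change above 0, with a median of 0.24, while 6 of the 17 nearer peaks did, with a median of -0.03. The medians over all peaks of the table were 0.01 and -0.01. The nearer group is made up mostly of the Elane and Prtn3 cluster, so distance and gene cannot be told apart here, and the difference was not tested. Of the 20, 11 were in both peak lists, and 9 of those were above 0. Around the 10 genes, the 122 peaks within 20000 bp of a gene body held 85 that the table assigned to other genes. Of those, 0 passed an adjusted p of 0.05 in DESeq2 (all peaks 1.39%), with 5 at an unadjusted p under 0.05 (5.88%, all peaks 9.02%).

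Markers of other cell types were read from peaks within 3000 bp of their TSS. For mature neutrophils, 3 of 9 marker genes had such a peak, with Ly6g, Mmp8, Ltf, Camp, Ngp and Retnlg having none, and their summed level was 327 to 363 normalised tags in oil and 356 to 392 after tamoxifen. Of the 53 peaks of that list within 100000 bp, 0 passed an adjusted p of 0.05 in DESeq2. They include the 5 peaks of Ltf followed above. The other genes of that list are also in the further neutrophil list below, so it is not a separate reading. Of all peaks 1.39% passed, 1.22% higher after tamoxifen, which is the share to set beside the counts that follow. For monocytes and macrophages, 5 of 8 genes had a peak, and the sum ran from 306 to 333 in oil and from 405 to 467 after tamoxifen, without overlap. Of the 49 peaks of that list within 100000 bp 2 passed, both higher, and the Cx3cr1 TSS peak went from 73.0 ± 8.33 to 136 ± 17.05 (SD, n = 3 each, DESeq2 adjusted p 0.00129). The TSS peak of Cd34, a progenitor surface protein, rose, with 94.6 ± 21.8 in oil and 270 ± 60.5 after tamoxifen (SD, n = 3 each, adjusted p 8.32e-12). For mast cells and basophils the sum was 1684 to 1689 in oil and 1695 to 1868 after tamoxifen, without overlap, and of the 71 peaks of that list within 100000 bp 5 passed, all higher, with a median log2 fold change of 0.47. For eosinophils, with a peak in 2 of 4 genes, the sum was 350 to 378 in oil and 423 to 528 after tamoxifen, also without overlap, and 0 of 17 peaks passed in DESeq2. Erythroid genes, all 6 of which had a peak, summed to 5893 to 6226 in oil and 5569 to 5719 after tamoxifen, without overlap, and of their 67 peaks 2 passed higher and 2 lower. T cell genes had a peak in 2 of 8 and B cell genes in 3 of 6, with sums that overlapped between the groups, and 1 of 16 T cell peaks passed, higher, and 0 of 37 B cell peaks. Single peaks did not overlap between the groups at 21.9% of all peaks, and how often such sums do so was not tested. The part of any of these cell types in the Fpr1 and Mpo values was not tested.

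Other genes of the granulocyte pathway were taken from a list of 53, of which 45 had peaks and 8 had none: Azu1, Camp, Cd177, Chil3, Fpr3, Lyz2, Mgst1 and Trem1. The list was chosen with earlier results of these data known, so its shares are a description only. Of its 375 peaks 11 passed an adjusted p of 0.05 (2.93%, where all peaks gave 1.39%), all higher after tamoxifen, and the median log2 fold change was 0.09. At an unadjusted p under 0.05 there were 69 (18.4%, all peaks 9.02%), 56 higher and 13 lower, and at 113 (30.1%, all peaks 21.9%) the groups did not overlap. All 11 belonged to genes of the azurophil granule and early promyelocyte list (4 of 102 peaks, 3.92%) and to the S100 genes of the same chromosome (7 of 33, 21.2%). In the specific and gelatinase granule list 0 of 74 peaks passed, with a median of 0.03, in the list of surface receptors 0 of 94, with a median of 0.03, and in the oxidase list 0 of 72, with a median of -0.07. At an unadjusted p under 0.05 these 3 lists held 7, 9 and 8 peaks (9.46%, 9.57% and 11.1%, where all peaks gave 9.02%). Where 2448 peaks of the table passed in DESeq2, edgeR called 5136 and DESeq2 without tamoxifen 4 called 6529, and the count of 11 was 24 and 28 with these. It was 5 without oil 1, 6 without oil 2, 5 without oil 4, 6 without tamoxifen 1 and 3 without tamoxifen 3, with 629 to 1078 peaks of the table called.

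In the azurophil granule and early promyelocyte list 81 of 102 peaks had a log2 fold change above 0, with a median of 0.25, although 39 of the 102 belonged to Srgn alone. The Nkg7 peak at +1611 bp was higher after tamoxifen, at 200 ± 35.6 against 94.7 ± 8.80 normalised tags (SD, n = 3 each, log2 fold change 1.07 ± 0.18, DESeq2 adjusted p 1.53e-06). Nkg7 encodes a membrane protein of cytotoxic granules. The peak at +1367 bp of Cst7, the gene of cystatin F, an inhibitor of granule proteases, rose from 72.5 ± 7.47 to 150 ± 40.7 (adjusted p 0.000451). Srgn encodes serglycin, the proteoglycan that packs granule proteases, and its peaks at -16240 bp and +9108 bp rose with log2 fold changes of 0.43 and 0.58 (adjusted p 0.0359 and 0.0376).

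Of the S100 genes, S100a6 had 3 peaks past an adjusted p of 0.05, at +15090, -89 and +2723 bp, with log2 fold changes of 1.02, 0.62 and 0.56. S100a11 had 3, at -14305, -13999 and -39 bp, with 1.02, 1.18 and 0.63, and S100a10 had 1, at +42232 bp, with 0.79. All 3 encode calcium-binding proteins that are made in many cell types. The 2 peaks of S100a1, of the same list, were lower, with log2 fold changes of -0.43 at +388 bp and -0.71 at +808 bp. Their unadjusted p was 0.0217 and 0.0279 and their adjusted p 0.386 and 0.433 in DESeq2. Of the 33 peaks of the S100 list 22 had a log2 fold change above 0, and of the 13 peaks of S100a10 7 did. The TSS peak of S100a6 held 190, 199 and 185 normalised tags in oil and 285, 311 and 286 after tamoxifen, so that every tamoxifen library lay above every oil library. S100a8 and S100a9, on the same chromosome, gave log2 fold changes of 0.17 to 0.50 at their 4 peaks, with 0 of 4 past an adjusted p of 0.05 and 0 at an unadjusted p under 0.05. The value of 0.50 is that of an S100a9 peak from the tamoxifen list alone, which favours a rise. Whether these differ from those of S100a6 and S100a11 was not tested.

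**Figure D5:**
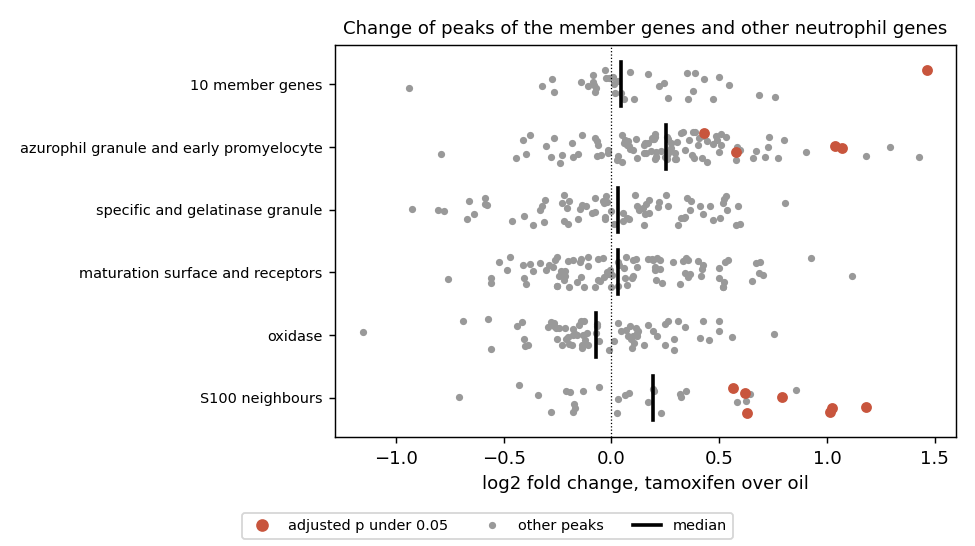
Log2 fold change of tamoxifen over oil (horizontal axis) for each peak of the 10 genes and of 5 further gene lists (vertical axis, points spread for sight), with peaks at an adjusted p under 0.05 in red and the median of each list as a black bar. The red points lie in the azurophil granule list (4), the S100 list (7) and at Fpr1 (1), all right of 0, while the other 3 lists hold none.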

How the data were processed

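ATAC-seq tags were analysed in 3 oil and 3 tamoxifen libraries of sorted mouse leukaemia cells. The authors mapped reads to mm10 with Bowtie2, called peaks in each group with HOMER, merged the lists and counted tags per merged peak (versions not given in the sources used here). The deposited values are unnormalised tags, treated as an estimated count because they come in steps of 0.5. HOMER kept up to 3 tags at a position, so that the highest peaks are capped. Since the table merges the peak lists of the groups, a peak called in neither group is missing.

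Tags were rounded and fitted with DESeq2 1.42.0 (Wald test, R 4.3.3) over all 175929 peaks, with Benjamini-Hochberg adjustment over all of them and group as the only term. edgeR 4.0.16, other size factors, filters, distances and leaving out libraries were alternatives. The tests were checked on simulated data. SE and intervals (95%) are those of the fit and cover the libraries' spread and counting error. Peaks past an adjusted p of 0.05, at an unadjusted p under 0.05 without overlap, nearest the TSS or with the highest levels were named. The rule fixed for further genes was an adjusted p of 0.05. The 10 genes and all lists were chosen with earlier results of these data known. Sequences came from the RefSeq copy of GRCm38, and 175738 peaks lay on its 21 assembled chromosomes. Replicate numbers were not used as pairs in the main fit. Deviations of same-numbered libraries correlated at -0.0437 and 0.0502. These values cannot show whether such libraries were collected together, and the labels do not say.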

Additional observations from a re-analysis of the deposited data

How the results depend on the processing

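With TMM factors or total tags in peaks, the 4 counts stayed within 1.5 times, and the median log2 fold change within 1 SD, of those reported. Peaks within 10000 bp did so for the 3 counts of the 10 genes, with a median of 0.015 against 0.046 over all 37. The further list was not run at that distance. The planned filter at a mean of 10 tags left all 175929 peaks in. A filter at 20 tags, chosen after seeing the data, left 167451 peaks and 36 of the 37, with the same outcome. edgeR gave 7 of the 37 peaks at an unadjusted p under 0.05 and 24 further-list peaks past an adjusted p of 0.05. Distal peaks fitted alone gave a median log2 fold change of 0.23. Peaks within 20000 bp of the gene bodies gave 9 of 122 at an unadjusted p under 0.05 (7.38%, all peaks 9.02%).

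Leaving out 1 library at a time gave 0 to 1 of the 37 peaks past an adjusted p of 0.05, 0 to 1 also with a fold over 2, 1 to 5 at an unadjusted p under 0.05, a median log2 fold change of 0.027 to 0.097, and 3 to 28 further-list peaks. In these fits, except that without tamoxifen 4, DESeq2 gave no adjusted p for 5 to 13 of the 37 and 52 to 109 of the 375 peaks. The 28 came without tamoxifen 4, when 6529 peaks of the table passed, and the 3 without tamoxifen 3. Without oil 1 the further list gave 5, without oil 2 it gave 6, without oil 4 it gave 5 and without tamoxifen 1 it gave 6. With the replicate block, on the 4 libraries numbered 1 and 4, 0 of the 37 passed an adjusted p of 0.05 (0 with a fold over 2), 1 an unadjusted p of 0.05, the median was 0.17 and the further list gave 0, with no adjusted p for 13 of the 37 and 94 of the 375. The Fpr1 peak then had a log2 fold change of 1.72 and an adjusted p of 1.00, and the fit had fewer libraries.

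Among the 16 peaks for which directions were followed, 4 turned, all near 0. Leaving out 1 library at a time, the log2 fold change ran from -0.13 to 0.0038 at Prtn3 +2515, from -0.041 to 0.072 at Ctsg, from -0.17 to 0.038 at Lcn2 +2582 and from -0.18 to 0.16 at Ltf -3437. Prtn3 and Lcn2 turned without oil 4, Ctsg without oil 4 or tamoxifen 1, and Ltf without oil 2 or tamoxifen 3. Ctsg also gave -0.00043 with total tags and -0.0036 with distal peaks alone, and Ltf -3437 gave 0.32 with the replicate block. Causes were not tested. The 37 peaks held 11.0 to 310 tags in a library, and the SE of their log2 fold changes ran from 0.13 to 0.45, so a shallow peak that missed the threshold is not shown to be unchanged.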
